A study of Drosophila melanogaster with 16 samples.

Results

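The K-box family of Drosophila melanogaster microRNAs (miRNAs) was followed across sex, age and dFOXO genotype in 16 small RNA libraries of whole flies. Its members were miR-2a-3p, miR-2b-3p, miR-2c-3p, miR-13a-3p, miR-13b-3p, miR-11-3p and miR-308-3p. They were the 7 mature strands kept from 14 rows that carry these names, out of 209 miRNA rows and 340 features in all. Of each name the strand, or arm, of the hairpin with more reads over the 16 libraries was kept, which was the 3′ arm every time. The other 7 rows were 5′ arms and are described on their own.

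The libraries compared dFOXO-null flies, which carry a deletion of the dfoxo gene (allele 94) in the wDah background, with wDah flies, an outbred white-eyed Dahomey strain that served as wild type. It is a single allele, and the deletion is carried in every cell of the fly. Females and males were mated, kept at 25 °C, and collected old, at 31 days, or young, at 5 days in replicate 1 and 6 days in replicate 2. Each of the 8 conditions had 2 libraries, each from 40 pooled whole flies, and per the labels old and young flies of 1 genotype and replicate were siblings.

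The K box is a short motif in the 3′ untranslated regions of many Notch target genes of the Enhancer of split and Bearded families. miRNAs of the miR-2, miR-6, miR-11, miR-13 and miR-308 group share a seed, the 5′ stretch that chooses targets, that is complementary to it. The group is also known in flies for repressing the pro-apoptotic genes hid, grim, reaper and sickle. Because the members share a seed, they are commonly treated as able to act on overlapping sets of messenger RNAs.

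The members came from 10 hairpins, spread over 6 places in the dm6 genome. The hairpins mir-2a-2 (2L:19569490-19569561), mir-2a-1 (2L:19569897-19569972) and mir-2b-2 (2L:19570182-19570264) lay in introns of spi, which encodes a ligand of the EGF receptor, with gaps of 335 and 209 bases between them. The second miR-2b hairpin, mir-2b-1 (2L:8258616-8258692), overlapped an exon of Btk, a tyrosine kinase gene. The hairpins mir-13b-1 (3R:15417408-15417475), mir-13a (3R:15417542-15417616) and mir-2c (3R:15417744-15417845) lay in an exon of a long non-coding RNA gene, lncRNA:CR45911, with gaps of 66 and 127 bases. The second miR-13b hairpin, mir-13b-2 (X:9091230-9091299), was in an intron of CCT2, a chaperonin subunit gene. The mir-11 hairpin (3R:21622497-21622571) was in an intron of E2f1, a cell cycle transcription factor gene, and mir-308 was in an intron of the ribosomal protein gene RpS23 on 2R. All lay on the minus strand except mir-13b-2.

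The mature strands within miR-2 and within miR-13 are near identical, and the authors' alignment permitted 1 mismatch and reported every valid alignment. Reads of one such strand could therefore be given to another. How reads with several alignments were counted was not given in the sources used here, so values within miR-2 or within miR-13 are uncertain relative to each other and are not independent measurements.

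Depth ranged between 596871 and 15259153 counted reads a library, with 3721873 to 15259153 in replicate 1 and 596871 to 5036091 in replicate 2. Reads carried no molecular identifiers, so counting intervals would cover counting error only. miRNAs took 76.5 to 90.4% of counted reads in females and 98.2 to 99.6% in males, so a percent of counted reads is taken out of a larger share of other small RNA in females. The sum of 3 ovary miRNAs was 1.27 to 4.77% in females against 0.0106 to 0.154% in males, and that of the 4 listed testis miRNAs was 0 to 0.00153% in females against 0.00967 to 0.0305% in males, so both sexes carried the markers of their label. No dfoxo transcript was listed in the counts over dm6 transcripts used here, so the genotype labels were not checked. In whole flies, fewer cells of a type and less miRNA in each cell cannot be told apart.

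The 4 old replicate 2 libraries, 1 of each sex and genotype, stood apart from the other 12. Reads of the added synthetic spike-in RNAs were 0.0475 to 0.150% of counted reads in these 4 and 0.00175 to 0.0242% in the other 12. The spike-in share was also higher in old than in young siblings of replicate 1. Spike-in reads there were 795 against 157 in wDah and 194 against 91 in dFOXO-null females. In males they were 1309 against 187 in wDah and 900 against 364 in dFOXO-null flies. miR-124-3p, a miRNA of neurons, was 0.0245 to 0.0440% in the 4 old replicate 2 libraries against 0.00127 to 0.00898% in the other 12, without overlap. The sum of the muscle miRNAs miR-1-3p and miR-133-3p was 1.30 to 8.79% against 4.22 to 21.8%. Over 132 miRNAs the median absolute log2 difference between the 2 libraries of a condition was 0.54 to 1.28 in the 4 old conditions and 0.35 to 0.55 in the 4 young ones.

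Together the members made up 0.657 to 1.46% of counted reads, with a median of 0.902%. miR-11-3p, known in flies for limiting cell death driven by its host gene E2f1, was the most abundant, at 0.522 to 1.21% (median 0.634%). It supplied 47.5 to 93.5% of the reads of the 7 members. By their medians over the 16 libraries the order was then miR-2a-3p (0.0356%), miR-2b-3p (0.0346%), miR-13b-3p (0.0231%), miR-2c-3p (0.0167%) and miR-13a-3p (0.0163%). The ranges of these 5 strands overlapped, and miR-2a-3p and miR-2b-3p lay within 0.783 to 1.14 times each other in every library. miR-308-3p was the rarest, with 187 reads over all 16 libraries and at most 57 in one. All 7 passed the minimum mean of 5 reads.

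**Figure D1:**
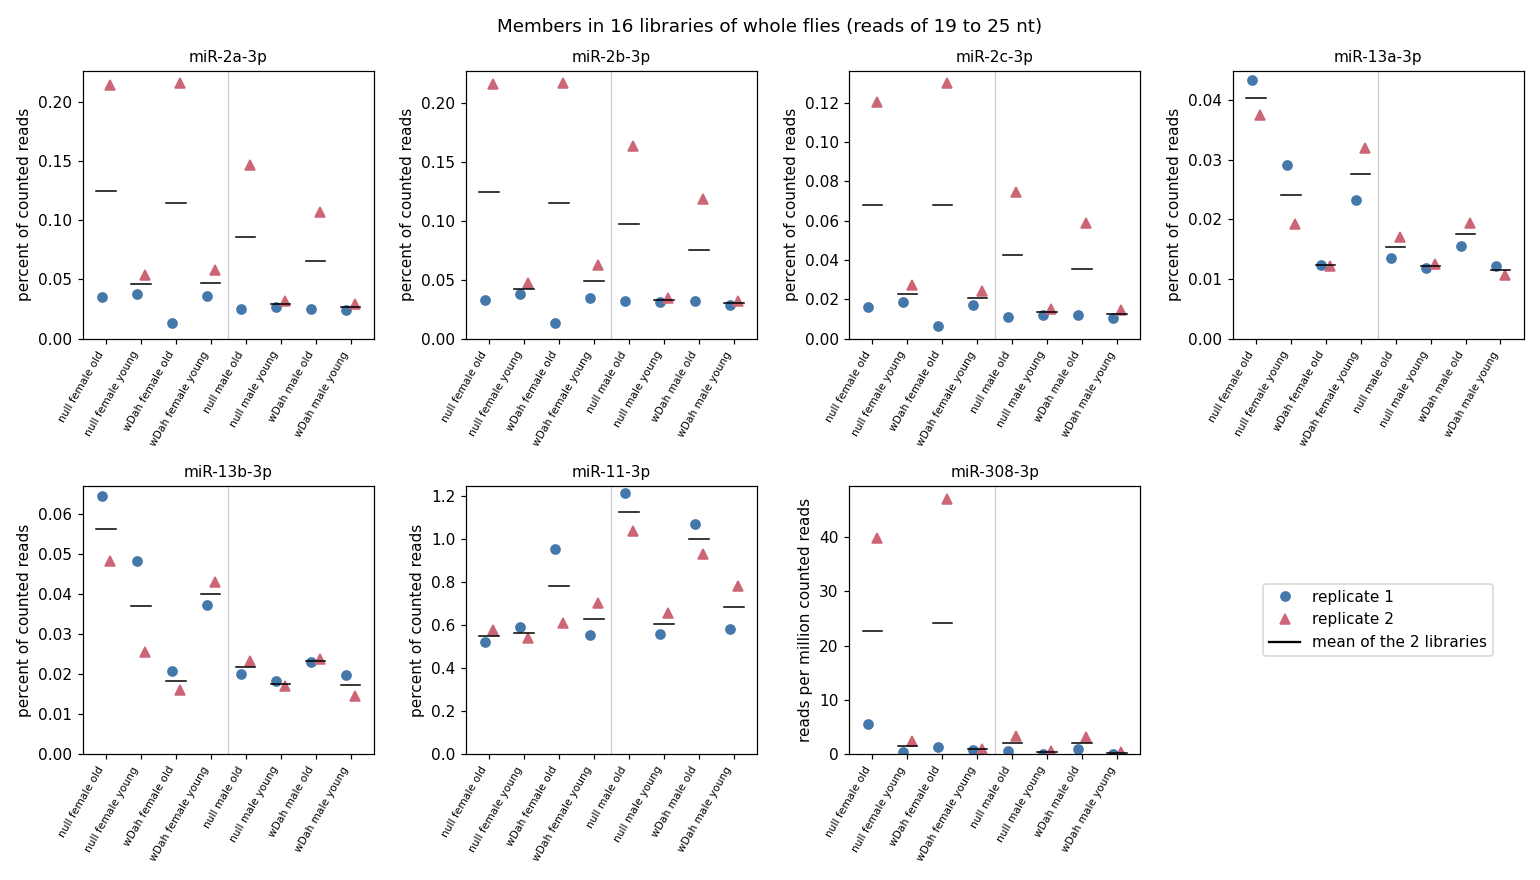
Level of each member in the 16 libraries, as percent of counted reads on a linear axis (reads per 1000000 counted reads for miR-308-3p), by condition, with old left of young and females left of males; circles are replicate 1, triangles replicate 2, and lines the mean of the 2 libraries. The miR-2 strands were highest in the old replicate 2 triangles (miR-2a-3p 0.106 to 0.216%), the miR-13 strands were high in females other than old wDah females on this scale, though not under TMM scaling, and miR-308-3p was high in old females of replicate 2.

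The 3 miR-2 strands were higher in old than in young flies of replicate 2, in each sex and genotype, and not in replicate 1. In replicate 2, miR-2a-3p was 0.214% in old and 0.0536% in young dFOXO-null females, and 0.216% in old and 0.0584% in young wDah females. Males of replicate 2 had 0.146% old and 0.0317% young in dFOXO-null flies, and 0.106% old and 0.0291% young in wDah flies. The 4 old libraries of replicate 2 thus all lay above every other library, at 3.66 to 4.61 times their young siblings.

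In replicate 1, miR-2a-3p was 0.0351% in old and 0.0381% in young dFOXO-null females, and 0.0134% in old and 0.0360% in young wDah females. Males of replicate 1 had 0.0248% old and 0.0268% young in dFOXO-null flies, and 0.0250% old and 0.0245% young in wDah flies. Old over young was 0.373 to 1.02 there, and the old wDah female library was the lowest of all 16.

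miR-2b-3p and miR-2c-3p followed the same course. miR-2b-3p was 0.119 to 0.217% in the 4 old replicate 2 libraries, 0.0129 to 0.0329% in the 4 old replicate 1 libraries and 0.0285 to 0.0629% in the 8 young ones. miR-2c-3p was 0.0588 to 0.130% in old replicate 2, 0.00624 to 0.0161% in old replicate 1 and 0.0106 to 0.0271% in the young libraries. Old over young in replicate 2 was 3.45 to 4.69 for miR-2b-3p and 4.07 to 5.41 for miR-2c-3p. The 3 strands were the members whose values in old replicate 2 did not overlap with the other 12 libraries, as did those of 29 of 330 features (8.79%), all of them miRNAs.

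**Figure D2:**
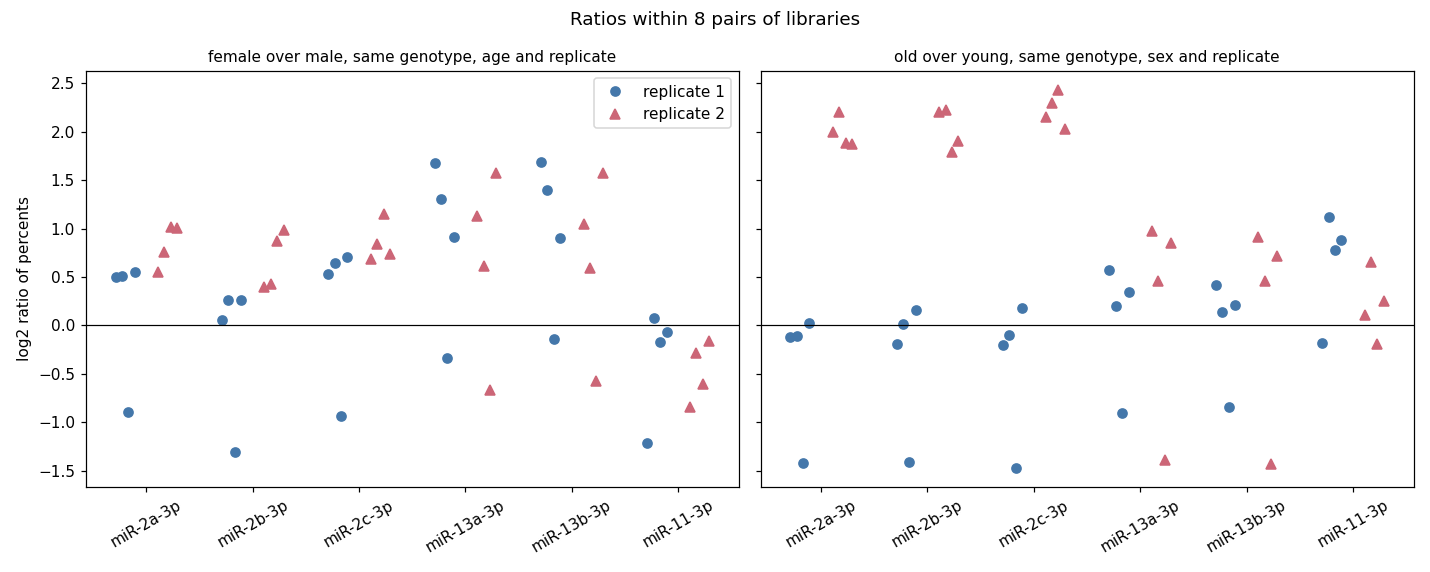
Log2 ratio of percents within 8 pairs of libraries for 6 members, female over male at left and old over young at right; circles are replicate 1 and triangles replicate 2, and 0 marks no difference. At right the 4 triangles of each miR-2 strand lie far above 0 while the circles lie near or below it; at left, by counted reads, 6 of 8 points of each miR-13 strand lie above 0 and 7 of 8 of miR-11-3p below it, and these signs turn under TMM and spike-in scaling in that order.

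Averaged over sex and genotype, none of the 3 miR-2 strands passed the test for age (edgeR quasi-likelihood test, Benjamini-Hochberg adjustment over 330 features). The log2 fold change of old over young was 1.39 for miR-2a-3p (SE 0.57, adjusted p = 0.102), 1.42 for miR-2b-3p (SE 0.56, adjusted p = 0.0964) and 1.61 for miR-2c-3p (SE 0.61, adjusted p = 0.0856). Of the 7 members 1 was called, miR-308-3p, against 10.6% of all features, and the median log2 fold change was 1.39 over the members and 0.55 over all features. By counted reads 26 features were called higher and 9 lower in old flies, by TMM 12 and 16, and by spike-in reads 0 and 284, where the miR-2 strands turned to between -2.42 and -2.29. None was called within any single sex and genotype, where 0% of features passed in each of the 4 contrasts. All 3 strands passed the averaged test when replicate 1 of old wDah females (adjusted p = 0.0210 to 0.0254) or of old dFOXO-null males (adjusted p = 0.0325 to 0.0374) was left out.

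The difference between replicates was itself tested, as an addition made after the values were seen. The age effect in replicate 2 exceeded that in replicate 1 by 2.38 on the log2 scale for miR-2a-3p (SE 0.47, adjusted p = 0.00512), 2.37 for miR-2b-3p (SE 0.50, adjusted p = 0.00724) and 2.61 for miR-2c-3p (SE 0.48, adjusted p = 0.00358). These were 3 of 7 members, against 11.2% of all features, and the 3 calls held with each of the 16 libraries left out. They did not hold with spike-in reads as the library size, where the differences were 1.20, 1.19 and 1.44. The added spike-ins, miR-124-3p and the muscle miRNAs also shifted in the 4 old replicate 2 libraries, and the spike-ins in old replicate 1 too. Their part in the result was not tested.

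With replicate 1 alone, in an additive fit of sex, age and genotype, the age effect was -0.36, -0.31 and -0.35 for miR-2a-3p, miR-2b-3p and miR-2c-3p (adjusted p = 0.782, 0.838 and 0.818), and with replicate 2 alone 1.99, 2.03 and 2.23 (adjusted p = 0.0049, 0.0049 and 0.00315). Replicate number also differed in the age of the young flies, 5 or 6 days, and in depth, and these cannot be told apart from the replicate itself. The other 4 members passed no test of a difference between replicates.

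Between the 3 miR-2 strands, which are not independent measurements, Pearson r of log2(percent + 0.001) was 0.987 to 0.997. Outside the family, the miRNA whose levels were most like those of each miR-2 strand was miR-124-3p. Over the 16 libraries Pearson r of log2(percent + 0.001) was 0.953 with miR-2a-3p, 0.945 with miR-2b-3p and 0.960 with miR-2c-3p. miR-932-5p was next for all 3 strands, with r of 0.925, 0.941 and 0.931, and then miR-996-3p for miR-2a-3p and miR-2c-3p (0.892 and 0.911) and miR-274-5p for miR-2b-3p (0.914). These values describe 122 miRNAs over 16 libraries that share depth and replicate, and the 4 old replicate 2 libraries spread the points most.

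**Figure D3:**
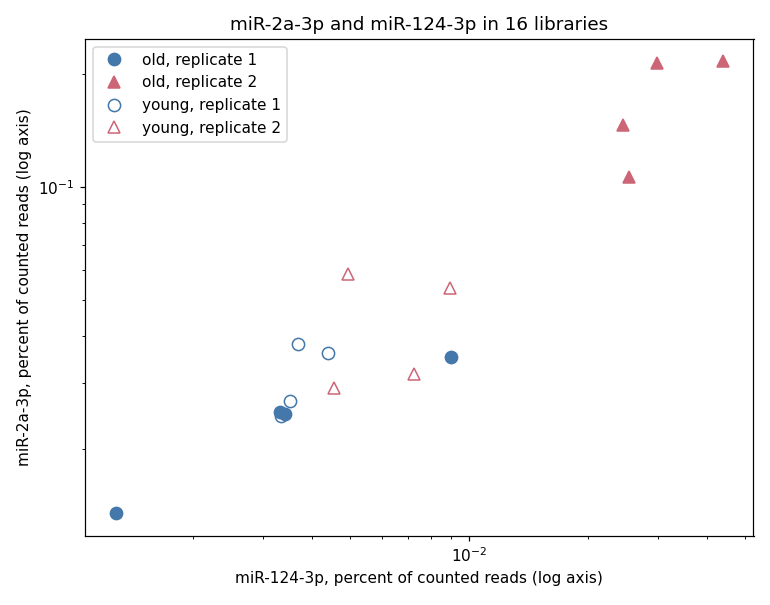
miR-2a-3p against miR-124-3p in the 16 libraries, both as percent of counted reads on log axes; filled symbols are old and open symbols young flies, circles replicate 1 and triangles replicate 2. The 4 filled triangles (old, replicate 2) stand at the upper right, at 0.0245 to 0.0440% miR-124-3p, apart from the other 12 libraries.

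Sex had no edgeR test by counted reads past the threshold on the miR-2 strands. Averaged log2 fold changes of female over male were 0.70 for miR-2a-3p (adjusted p = 0.290), 0.50 for miR-2b-3p (adjusted p = 0.447) and 0.78 for miR-2c-3p (adjusted p = 0.276). Females were higher in 7 of 8 pairs for each strand, and the exception was the old wDah pair of replicate 1. Without the old wDah female library of replicate 2 the direction turned, to -0.07, -0.29 and -0.08. It also turned under TMM (-0.57, -0.80 and -0.49) and DESeq2 (-0.76, -0.98 and -0.69), and DESeq2 called miR-2b-3p lower in females (adjusted p = 0.0214).

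The miR-13 strands were higher in females, apart from old wDah flies, as percents of counted reads, a direction that TMM scaling turned (given below). miR-13a-3p was 0.0122 to 0.0432% in the 8 female libraries (median 0.0261%) and 0.0107 to 0.0194% in the 8 male libraries (median 0.0130%). In old dFOXO-null females it was 0.0432 and 0.0375%, against 0.0135 and 0.0171% in old dFOXO-null males. In young wDah females it was 0.0231 and 0.0319%, against 0.0123 and 0.0107% in young wDah males, and in young dFOXO-null females 0.0291 and 0.0191%, against 0.0118 and 0.0125% in males. Old wDah females were the exception, with 0.0123 and 0.0122%, below the 0.0156 and 0.0194% of old wDah males.

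miR-13b-3p showed the same pattern at a higher level. It was 0.0644 and 0.0481% in old dFOXO-null females against 0.0200 and 0.0233% in old dFOXO-null males, and 0.0208 and 0.0159% in old wDah females against 0.0229 and 0.0237% in old wDah males. Young females had 0.0482 and 0.0255% in dFOXO-null and 0.0372 and 0.0429% in wDah flies, against 0.0144 to 0.0198% in young males. The ratio of miR-13a-3p to miR-13b-3p was 0.594 to 0.819 over all libraries, and their r over the 16 libraries was 0.976. The miRNAs outside the family most like miR-13a-3p were miR-314-3p (r = 0.825), miR-282-5p (0.756) and miR-9b-3p (0.752), and those most like miR-13b-3p were miR-9c-5p (0.754), miR-314-3p (0.753) and miR-306-5p (0.728).

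Averaged over age and genotype, female over male was 0.79 on the log2 scale for miR-13a-3p (SE 0.24, adjusted p = 0.0103) and 0.83 for miR-13b-3p (SE 0.25, adjusted p = 0.00916), and females were higher in 6 of 8 pairs of each. The call of miR-13a-3p was lost with spike-in scaling (1.80, adjusted p = 0.0525), and in replicate 2 alone both were lost (0.79 and 0.78, adjusted p = 0.177 each). With miR-308-3p these were the 3 of 7 members called, against 63.3% of all features, which include transposons, and 94 of 208 miRNAs. The share of members called was thus below that of all features and near that of the miRNAs. The median log2 fold change was 0.78 over the members, 0.78 over all features and -0.16 over the miRNAs. No member had female and male ranges without overlap, against 43.0% of features (142 of 330, of which 32 were miRNAs).

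This direction depends on what the reads are scaled to. TMM scaling moved the median of all features in the sex contrast to -0.49, against 0.78 by counted reads, and called 141 features higher and 143 lower in females, against 159 and 50. It gave -0.40 for miR-13a-3p and -0.35 for miR-13b-3p. The direction stayed with miRNA reads as library size (1.02 and 1.06), spike-in reads (1.80 and 1.85) and TMM over miRNAs (0.98 and 1.03). Relative to the median miRNA both strands were higher in females by 0.94 and 0.99 with counted reads and by 0.98 and 1.02 with TMM over all features. They were ranked 45 and 43 of 208 miRNAs from the top by counted reads. The ovary markers moved with sex too, and their part in the difference was not tested.

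Within conditions, miR-13a-3p passed the sex test in old dFOXO-null flies (log2 fold change 1.40, SE 0.49, adjusted p = 0.0268) and in young wDah flies (1.26, SE 0.48, adjusted p = 0.0433). miR-13b-3p passed in old dFOXO-null flies (1.38, SE 0.51, adjusted p = 0.0346) and had an adjusted p of 0.0571 in young wDah flies. That made 2 of 7 members in old dFOXO-null flies, against 50.9% of features, and 1 of 7 in young wDah flies, against 50.0%. No member was called in young dFOXO-null flies, against 46.4%, or in old wDah flies, against 49.4%. Among the 208 miRNAs, 57 were called in old dFOXO-null, 51 in young wDah, 40 in young dFOXO-null and 49 in old wDah flies. The young wDah call was lost without either library of young wDah females, young wDah males, young dFOXO-null males, old wDah males or old dFOXO-null females. In old dFOXO-null flies the calls of both strands were lost without either library of old dFOXO-null females or without replicate 1 of old dFOXO-null males, and that of miR-13b-3p also without replicate 2 of those males or either library of old wDah males (adjusted p = 0.0518 to 0.145 over these runs). With the replicate number as a block, for the sibling pairing, 4 members were called in old dFOXO-null flies (against 56.7% of all features under the same block), 2 in young wDah flies (53.3%) and 1 in old wDah flies (51.5%). With the block set within each genotype these counts were 3 (55.5%), 0 (51.5%) and 0 (51.2%).

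Averaged over sex and genotype, the miR-13 strands did not pass the main age test. Their log2 fold changes were 0.13 (SE 0.24, adjusted p = 0.665) and 0.06 (SE 0.25, adjusted p = 0.874). TMM, DESeq2 and spike-in scaling turned both signs. This average joins opposite moves, with old flies higher in 6 of 8 pairs for each strand and lower in both wDah female pairs. In wDah females old over young was -1.16 for miR-13a-3p and -1.13 for miR-13b-3p (adjusted p = 0.481 and 0.525), while in dFOXO-null females it was 0.75 and 0.61 (adjusted p = 0.771 and 0.847). None of these contrasts passed by counted reads.

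miR-308-3p was higher in females and in old flies, on few reads. In old females it had 27 and 57 reads in dFOXO-null flies and 10 and 51 in wDah flies, and in old males 2 and 2 in dFOXO-null and 8 and 4 in wDah flies. In young females it had 2 and 12 reads in dFOXO-null and 7 and 3 in wDah flies, and in young males 0 and 1 in each genotype. Scaled to depth, old females of replicate 2 reached 39.9 and 47.1 reads per 1000000 counted reads (RPM), against 5.61 RPM at most in any other library.

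Its log2 fold change of female over male was 3.66 (SE 0.99, adjusted p = 0.00464), with females higher in 8 of 8 pairs. It was rank 12 of 208 miRNAs, and the call held with each library left out and under TMM (2.40). Old over young was 4.04 (SE 1.02, adjusted p = 0.0260), with old flies higher in 8 of 8 pairs, rank 1 of 208 miRNAs. A fitted fold change on so few reads depends on the method's prior count and gives no bound.

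The age call of miR-308-3p was lost in 8 of 16 runs that left out 1 library, with adjusted p up to 0.0915. These libraries were replicate 1 of young wDah females, young wDah males, young dFOXO-null females and young dFOXO-null males, and replicate 2 of young dFOXO-null males, old wDah males, old dFOXO-null females and old dFOXO-null males. Without all 4 old replicate 2 libraries the fold change was 2.09 (adjusted p = 0.212), and with spike-in scaling 0.70 (adjusted p = 0.494). In additive fits each replicate alone gave a call, 2.89 in replicate 1 and 4.30 in replicate 2.

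The mir-308 hairpin in the counts over dm6 transcripts, made from the same libraries, had 36 and 62 reads in old and 8 and 14 in young dFOXO-null females, and 13 and 53 in old and 18 and 3 in young wDah females. Males had 1 to 11. Its log2 fold change was 2.22 for sex (SE 0.69, adjusted p = 0.0131) and 2.19 for age (SE 0.70, adjusted p = 0.0361). The miRNAs most like miR-308-3p were miR-996-3p (r = 0.864), miR-33-5p (0.817) and miR-981-3p (0.803).

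miR-11-3p was the steadiest of the members, with a range of 0.522 to 1.21% over all 16 libraries. No edgeR test on it passed in the main fit, by counted reads and without a block. The nearest was sex in old dFOXO-null flies, at -1.03 (SE 0.43, adjusted p = 0.0606). With the replicate number as a block, 4 members were called in that contrast, against 56.7% of all features. Old males had 1.21 and 1.04% in dFOXO-null and 1.07 and 0.929% in wDah flies, against 0.557 and 0.656% in young dFOXO-null and 0.582 and 0.783% in young wDah males, so old and young males did not overlap. That held for 3 of 7 members by counted reads, with both miR-13 strands, against 21.2% of all features. The mir-11 hairpin in the counts over dm6 transcripts was not higher in old males (given below). Old females had 0.522 and 0.579% in dFOXO-null and 0.953 and 0.612% in wDah flies, against 0.590 and 0.537% in young dFOXO-null and 0.555 and 0.701% in young wDah females, which did overlap. Within males the test found log2 fold changes of 0.89 in dFOXO-null (SE 0.43, adjusted p = 0.286) and 0.55 in wDah flies (SE 0.43, adjusted p = 0.498).

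Averaged, old over young was 0.43 for miR-11-3p (SE 0.21, adjusted p = 0.147), higher in 6 of 8 pairs. Female over male was -0.40 (SE 0.21, adjusted p = 0.118), lower in females in 7 of 8 pairs. TMM gave -1.57 (adjusted p = 2.19e-04) and DESeq2 -1.64 (adjusted p = 1.04e-07). miRNA reads as library size gave -0.17 and TMM over miRNAs -0.19. Spike-in scaling, which moved the median of all features to 1.62, gave 0.60. The size of this difference thus depends on the scaling, and its sign turned with spike-in reads. Relative to the median miRNA, miR-11-3p was -0.25 by counted reads and -0.04 by spike-in reads. The miRNAs most like it were miR-125-3p (r = 0.891), miR-927-5p (0.821) and miR-1010-3p (0.761).

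Loss of dFOXO changed no member past the threshold. Averaged over sex and age, log2 fold changes of dFOXO-null over wDah were 0.15 for miR-2a-3p, 0.11 for miR-2b-3p, 0.13 for miR-2c-3p, 0.35 for miR-13a-3p, 0.36 for miR-13b-3p, -0.17 for miR-11-3p and 0.05 for miR-308-3p. Adjusted p ran between 0.541 and 1.00, and 0 of 7 members were called, against 2.42% of all features. At an unadjusted p under 0.05 there were 0 of 7 members and 45 of 330 features. Within conditions 0 members were called, against 0.606% of features in young males, 2.73% in young females and 0% in old males and in old females. DESeq2 called 1 member in old females and none in the averaged contrast, and the share of all features it called is not given here.

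The nearest were the miR-13 strands in old females. miR-13a-3p was 0.0432 and 0.0375% in dFOXO-null against 0.0123 and 0.0122% in wDah old females, a log2 fold change of 1.72 (SE 0.49, adjusted p = 0.147), and miR-13b-3p had 1.62 (SE 0.51, adjusted p = 0.183). The values of the 2 genotypes did not overlap there for either strand, nor for miR-11-3p, which was 3 of 7 members against 37.0% of all features, and the test did not pass after adjustment. No member passed any test of a difference in effect between sexes or genotypes, among 3 averaged and 6 single-stratum differences, where 0% of features passed.

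The 5′ arms of the same hairpins were rarer, except that of mir-2b-2. miR-2b-2-5p was 0.0194 to 0.0812% and miR-11-5p 0.00284 to 0.0304%, and none of the other 5 arms exceeded 0.0208% in any library. The ratio of miR-2b-3p to miR-2b-2-5p was 2.49 to 8.05 in old replicate 2 and 0.545 to 2.14 in the other 12 libraries. In the sex contrast 3 of the 7 arms were called, against 63.3% of all features and 94 of 208 miRNAs. They were miR-2a-1-5p (0.94, adjusted p = 0.0163), miR-13b-2-5p (1.38, adjusted p = 0.00853) and miR-2c-5p (-1.01, adjusted p = 0.0263). In the genotype contrast none was called.

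In the age contrast 2 of the 7 arms were called, against 10.6% of all features. They were miR-2c-5p and miR-11-5p, which were singled out after their values were seen. Both had old and young ranges without overlap, as did 4 of 330 features (1.21%), none of them a member. Of the 4, these 2 were thus arms of hairpins of the family.

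miR-2c-5p was lower in old flies in both replicates. In old females it had 4 and 0 reads in dFOXO-null and 23 and 3 in wDah flies, and in old males 15 and 2 in dFOXO-null and 31 and 4 in wDah flies. In young females it had 71 and 32 reads in dFOXO-null and 128 and 32 in wDah flies, and in young males 299 and 19 in dFOXO-null and 185 and 54 in wDah flies. The old libraries had 0 to 0.000403% and the young ones 0.000635 to 0.00196% of counted reads, so every old library was below every young one.

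Its log2 fold change of old over young was -2.68 (SE 0.38, adjusted p = 0.00185). It was -2.67 with replicate 1 alone and -2.39 with replicate 2 alone, and passed under all 13 alternatives tried and with each of the 16 libraries left out. The 3′ arm of the same hairpin, miR-2c-3p, had old over young ratios of 4.07 to 5.41 in replicate 2 and 0.360 to 1.13 in replicate 1.

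**Figure D4:**
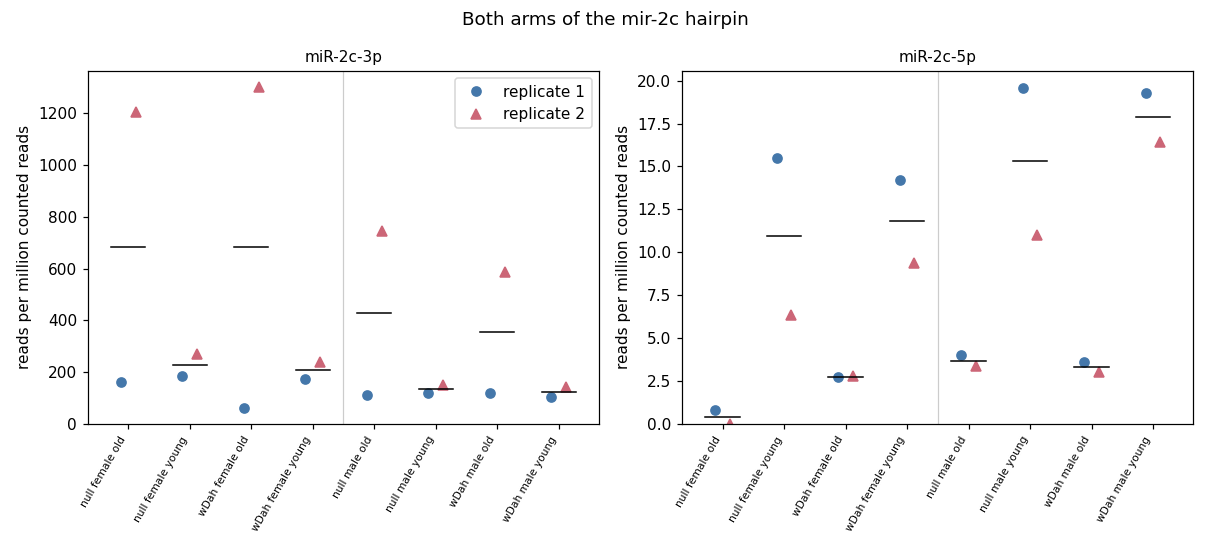
Both arms of the mir-2c hairpin in reads per 1000000 counted reads (RPM) on linear axes, by condition, with old left of young; circles are replicate 1, triangles replicate 2 and lines the mean of the 2 libraries. The 5′ arm is at 0 to 4.03 RPM in all 8 old libraries and at 6.35 to 19.6 in the 8 young ones, in both replicates, while the 3′ arm is highest in old replicate 2.

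miR-11-5p was higher in old flies. Old females had 0.0184 and 0.0159% in dFOXO-null and 0.0216 and 0.0304% in wDah flies, against 0.00284 and 0.00764% in young dFOXO-null and 0.00300 and 0.00511% in young wDah females. Old males had 0.0107 and 0.0174% in dFOXO-null and 0.0174 and 0.0166% in wDah flies, against 0.00879 and 0.00481% in young dFOXO-null and 0.00553 and 0.0107% in young wDah males. The highest young and the lowest old library nearly touched.

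Its log2 fold change was 1.63 (SE 0.32, adjusted p = 0.0123). The call was lost without replicate 1 of young wDah females (adjusted p = 0.0519) and the direction turned with spike-in scaling (-0.95). The ratio of miR-11-3p to miR-11-5p ran between 20.1 and 208.

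Length was a further readout of the members, because the authors also counted reads of 21 nt alone. The share of 21 nt among reads of 19 to 25 nt set miR-11-3p apart from the other members, at 81.3 to 92.0% (median 87.3%) against 13.3 to 31.0% for the miR-2 strands and 7.44 to 16.4% for the miR-13 strands. Over 118 miRNAs the median share was 21.1% with quartiles of 7.90 and 45.9%, and 5 miRNAs lay above miR-11-3p. miR-308-3p was not in the table of 21 nt reads, so its share was not analysed here.

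The miR-13 strands had a larger share of 21 nt among their own reads in old flies. miR-13a-3p was 11.2 to 15.9% (median 13.7%) in old and 7.44 to 13.7% (median 10.1%) in young libraries, and miR-13b-3p 9.90 to 16.4% (median 13.9%) in old and 7.88 to 14.3% (median 9.77%) in young ones, with overlapping ranges. The mean differences were 3.54 points (two-sided exact permutation test within sex and genotype, p = 0.00463, adjusted p = 0.0238) and 3.58 points (exact p = 0.00772, adjusted p = 0.0285). Old exceeded young siblings in 8 of 8 pairs for miR-13a-3p and in 7 of 8 for miR-13b-3p. With the replicate number as a block both were still called (exact adjusted p = 0.0318 and 0.0473), against 33.1% of miRNAs. The calls fell to 0 members without either library of old dFOXO-null males or without replicate 2 of old wDah males, and to 1 without replicate 1 of young wDah females. These were 2 of 6 members, against 33.1% of the 118 miRNAs, of which 31 of 39 rose, so the share of members called was near that of all miRNAs.

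For the other 4 members the age difference in 21 nt share was 0.51 points for miR-2a-3p, 0.76 for miR-2b-3p, -2.77 for miR-2c-3p and -2.97 for miR-11-3p (exact p = 0.139 to 0.764, adjusted p = 0.245 to 0.835). No member's share passed for sex or genotype, where 0% of miRNAs did. The smallest p this design allows is 0.00154.

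**Figure D5:**
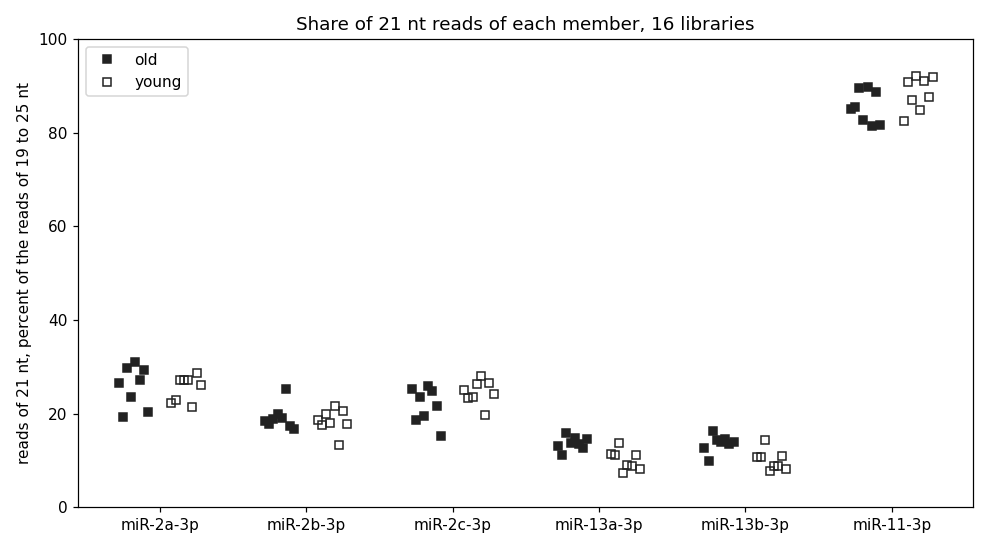
Share of 21 nt reads among the 19 to 25 nt reads of 6 members in 16 libraries, in percent on a linear axis; filled squares are the 8 old and open squares the 8 young libraries. miR-11-3p lies at 81.3 to 92.0%, and the filled squares of miR-13a-3p and miR-13b-3p are shifted up by about 3.54 and 3.58 points on average, with overlap.

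Of the 10 hairpins, 6 were listed among the counts over dm6 transcripts, and only mir-308 was called for sex (against 49.7% of 1566 transcripts) or for age (against 19.5%), and none for genotype (against 9.83%). The mir-2a-1 hairpin had 0.178 to 0.376% of the reads in old replicate 2 and 0.0459 to 0.188% in the other 12 libraries, and mir-2a-2 had 0.188 to 0.391% against 0.0457 to 0.188%. The shift of miR-2a-3p in old replicate 2 was thus also seen in this second table of the same libraries, with slight overlap. Averaged over both replicates the age difference was 0.33 for mir-2a-1 and 0.36 for mir-2a-2 on the log2 scale (adjusted p = 0.675 and 0.652). For the mir-11 hairpin it was -0.57 (adjusted p = 0.286), opposite in sign to miR-11-3p. This hairpin had 4.18 and 3.24% in old against 6.56 and 7.50% in young wDah males. In dFOXO-null males it had 6.60 and 3.96% in old against 6.98 and 5.34% in young flies. The higher level of miR-11-3p in old males was thus not seen in this second table.

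Other miRNAs that match boxes in Notch target genes were measured for comparison. miR-6-3p, an early embryonic miRNA of the same seed group, was 0.0124 to 0.224% in females and 0.00296 to 0.0117% in males (log2 fold change 3.68, adjusted p = 6.72e-07), without overlap. miR-4-3p and miR-79-3p, which match the Brd box, had log2 fold changes of 3.51 (adjusted p = 6.23e-06) and 2.17 (adjusted p = 0.0196) in the same contrast. miR-7-5p, which matches the GY box, had -0.45 (adjusted p = 0.184). None of the 4 was called for age or genotype. These values are by counted reads, where 63.3% of all features and 94 of 208 miRNAs were called for sex. Ranges of the sexes did not overlap for 43.0% of all features. No other scaling is given for these 4 miRNAs.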

How the data were processed

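Small RNA of 19 to 35 nt from whole flies was sequenced by the authors, trimmed with Trim Galore and restricted to 25 nt at most or to 21 nt. Reads were aligned with Bowtie, 1 mismatch permitted and all valid alignments reported, to dm6 or to a set of miRNAs, transposons and spike-ins, and counted with featureCounts. The tools are credited to the submitters' processing notes, and the versions were not given in the sources used here. The deposited counts were used as they stand. A deposited table in percent of mapped reads served only to check the percents recomputed from the counts, which matched within 0.00334 as a relative difference, and the other normalized tables were not used.

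Percents were taken of counted reads without the 8 spike-in rows. Counts were tested with edgeR 4.0.16 in R 4.3.3 (quasi-likelihood test, 1 coefficient for each of the 8 conditions, counted reads as library size, features with a mean of at least 5 counts, Benjamini-Hochberg adjustment over 330 features, threshold 0.05). DESeq2 1.42.0, TMM, miRNA reads or spike-in reads as library size, no filter, replicate blocks, 21 nt reads and each library left out were alternatives. Shares of 21 nt reads were compared for miRNAs averaging 100 counts or more by exact permutation within 4 strata (1296 arrangements; Python 3.11.15, scipy 1.17.1). Likeness used Pearson r of log2(percent + 0.001). The fits were tested on simulated data.

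The members and lists were chosen with earlier results of these data known. All members are named, with their other arms as ranges and 4 fixed miRNAs of related boxes. For each member the 3 most alike of the well covered miRNAs (100 counts on average or more) outside the family are also named. Per the labels old and young flies of 1 genotype and replicate were siblings, so replicate numbers pair the samples. Across ages, deviations of same-numbered libraries from their condition means correlated at 0.0741 to 0.355 (median 0.208) within a genotype. Between genotypes across ages the median was 0.210. At the same age they correlated at 0.455 to 0.770 between the sexes of 1 genotype and at 0.417 to 0.800 (median 0.655) between the genotypes. Same-numbered libraries were thus alike mainly within an age. The replicate blocks take the same shift at both ages and do not model that. With 2 libraries a condition, p-values measure the spread between these libraries.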

Additional observations from a re-analysis of the deposited data

Results flagged for a closer look

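These 8 differences stood out because, for at least 1 of the factors involved, both pairs of libraries moved one way in one group and both the opposite way in the other, with 2 pairs in each. For the miR-13 strands that was age between the female genotypes, age and sex within wDah flies, and sex and genotype within old flies. For miR-11-3p it was genotype. None passed the test of the difference itself after adjustment (edgeR, Benjamini-Hochberg over 330 features). For miR-13a-3p, the age effect in dFOXO-null females exceeded that in wDah females by 1.91 on the log2 scale (adjusted p = 0.582), the age effect in wDah females minus that in wDah males was -1.77 (adjusted p = 0.951), and the sex effect in old dFOXO-null flies exceeded that in old wDah flies by 1.91 (adjusted p = 0.516). For miR-13b-3p the same 3 differences were 1.74 (adjusted p = 0.838), -1.57 (adjusted p = 0.951) and 1.72 (adjusted p = 0.516). The 6 share the 2 old wDah female libraries, whose levels of both strands were low, and the miR-13 strands are not independent of each other.

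For miR-11-3p, dFOXO-null males were above wDah males in both old pairs and below them in both young pairs, while old flies were above young ones in all pairs of males. Old dFOXO-null flies were below old wDah flies in both female pairs and above them in both male pairs, while females were below males in all old pairs. The age effect in dFOXO-null males exceeded that in wDah males by 0.34 (adjusted p = 1.00), and the sex effect in old dFOXO-null flies minus that in old wDah flies was -0.68 (adjusted p = 0.610).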

How the results depend on the processing

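Of the members called, miR-13a-3p, miR-13b-3p and miR-308-3p kept their averaged sex call with each of the 16 libraries left out. 2 libraries a condition and the 187 reads of miR-308-3p limit what these libraries show. Causes of the changes below were not tested. Apart from the replicate blocks, whose shares are given above, counts of members called below have no share of all features beside them. They show how a count moved between settings, and not whether the members differed from other features. The fits without the 4 old replicate 2 libraries, on 1 replicate alone or with TMM over miRNAs, and the test of the age effect by replicate, were added after seeing the data.

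With the replicate number as a block, for the sibling pairing, 2 members were called for sex in young wDah, 1 in old wDah and 4 in old dFOXO-null flies, and with the block within genotype 0 in young wDah and 3 in old dFOXO-null flies. Neither block moved any other count of members called.

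For sex averaged over conditions, TMM and DESeq2 gave -0.57 and -0.76 for miR-2a-3p, -0.80 and -0.98 for miR-2b-3p, -0.49 and -0.69 for miR-2c-3p, -0.40 and -0.46 for miR-13a-3p, and -0.35 and -0.40 for miR-13b-3p. miR-2b-3p was -0.14 in replicate 1 alone and -0.052 without the 4 old replicate 2 libraries, miR-11-3p was 0.60 with spike-in scaling, and 1 member was called in replicate 2 alone. In young wDah flies miR-13a-3p was -0.45 and -0.20 under TMM and DESeq2. Members called for sex in young wDah flies numbered 2 with miRNA reads as library size, 2 on the 4 libraries of the contrast and 2 without the 4 old replicate 2 libraries, and 0 with spike-in scaling, adjustment over miRNAs, 21 nt reads or TMM over miRNAs. In old wDah flies TMM called 1 and DESeq2 3, and in young dFOXO-null flies TMM, DESeq2 and the fit without the 4 old replicate 2 libraries called 1 each. In old dFOXO-null flies TMM, spike-in scaling, 21 nt reads and DESeq2 called 1 each, and adjustment over miRNAs and the 4 libraries alone 0.

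For age, spike-in scaling, which moved the median of all features to -2.34, called 6 members and gave -2.42 for miR-2a-3p, -2.38 for miR-2b-3p, -2.29 for miR-2c-3p, -2.06 for miR-11-3p, -2.55 for miR-13a-3p, -2.60 for miR-13b-3p and -0.95 for miR-11-5p. Replicate 1 alone gave -0.36, -0.31 and -0.35 for miR-2a-3p, miR-2b-3p and miR-2c-3p, and the fit without the 4 old replicate 2 libraries -0.63, -0.56 and -0.64. TMM, DESeq2 and TMM over miRNAs gave -0.31, -0.40 and -0.30 for miR-13a-3p and -0.36, -0.44 and -0.36 for miR-13b-3p. miR-11-3p was -0.0055 with 21 nt reads and -0.059 with DESeq2. Members called for age numbered 0 with 21 nt reads, a table of the other 6 members without miR-308-3p, so that this is no lost call. They numbered 0 without the 4 old replicate 2 libraries, 4 in replicate 2 alone, and 1 in dFOXO-null females on their 4 libraries. The age effect by replicate called 0 with spike-in scaling, and the 21 nt share called 1 at a mean of at least 1000 counts. For genotype, miR-11-3p was 0.050 with spike-in scaling, and DESeq2 called 1 member in old females.

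With 1 library left out, members called ran between 0 and 4 for age, 0 and 2 for sex in young wDah, 0 and 1 in old wDah and 0 and 4 in old dFOXO-null flies, and 0 and 3 for the 21 nt share. The sex difference ran between -0.069 and 1.15 for miR-2a-3p, -0.29 and 0.91 for miR-2b-3p and -0.083 and 1.26 for miR-2c-3p, and the age difference of miR-13b-3p between -0.039 and 0.19. The genotype difference ran between -0.31 and 0.92 for miR-2a-3p, -0.37 and 0.89 for miR-2b-3p, -0.39 and 0.99 for miR-2c-3p and -0.49 and 1.09 for miR-308-3p.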
